A study of Mus musculus with 5 samples.

Results

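The miR-34 family was measured in 5 mouse tissues, with miR-34a, which has a gene of its own, set against miR-34b and miR-34c, which lie side by side at another locus. The members were the array rows whose names begin with miR-34a, miR-34b or miR-34c, every arm included, and the rule used no measured value. It found 5 of the 598 mouse microRNA rows, among 2312 rows in all: mmu-miR-34a, mmu-miR-34b-5p, mmu-miR-34b-3p, mmu-miR-34c and mmu-miR-34c* (the mouse prefix is left out below), the star marking the opposite arm of the miR-34c hairpin. The samples came from C57BL/6 mice aged 2 to 3 months: brown fat, the inguinal and epididymal white fat depots, and 2 leg muscles, gastrocnemius and soleus. No treatment or genetic change is given for any tissue. Each tissue had 1 one-colour array of locked nucleic acid probes that capture mature microRNAs, and the number of animals behind each RNA is not stated in the labels. With 1 array a tissue no test could be run, and each error below is a standard error (SE) or range over the 4 spots of a probe, which covers spot noise only and not animals, extraction or labelling.

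MicroRNAs pair with messenger RNAs through the seed, bases 2 to 8 of the mature strand, and lower the stability and translation of those messengers. The miR-34 genes are direct transcriptional targets of p53, and their products repress cell-cycle and survival genes such as Cdk6, Met and Bcl2, as well as Notch1 and Sirt1. MiR-34a is made in most tissues, while the shared miR-34b/c transcript is best known from testis and from multiciliated epithelia such as airway, where the miR-449 microRNAs carry the same seed.

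The mature strands are shown because some strands of the family share a seed and most of their letters, and because the arms of 1 hairpin were not both detected. They are RefSeq sequences on the mouse build GRCm38.p6, written 5′ to 3′ with the seed in capitals, and 6 of the 8 names looked up (the family and 3 miR-449 relatives) had an entry. MiR-34c and miR-449b had none, so the likeness of miR-34c to miR-34b-5p could not be given. MiR-34a-5p lies at chr4:150068473-150068494 on the plus strand, miR-34b-5p at chr9:51103610-51103632 and miR-34b-3p at chr9:51103574-51103595 on the minus strand, and miR-34c-3p, the miR-34c* of the array, at chr9:51103044-51103065 on the minus strand. MiR-449a-5p lies at chr13:113037549-113037570 and miR-449c-5p at chr13:113036008-113036028, both on the plus strand.
miR-34a-5p: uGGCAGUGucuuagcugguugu
miR-34b-5p: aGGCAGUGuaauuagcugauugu
miR-449a-5p: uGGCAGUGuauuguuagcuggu
miR-449c-5p: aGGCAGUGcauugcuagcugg
miR-34b-3p: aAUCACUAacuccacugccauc
miR-34c-3p: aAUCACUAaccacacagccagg

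The strands fall into 2 groups by seed. GGCAGUG is shared by miR-34a-5p, miR-34b-5p, miR-449a-5p and miR-449c-5p, and AUCACUA by miR-34b-3p and miR-34c-3p. Aligned over 23 columns, miR-34a-5p and miR-34b-5p are identical at 19 (82.6%), and miR-34a-5p and miR-449a-5p at 17 of 23 (73.9%). MiR-34b-3p and miR-34c-3p are identical at 17 of 22 (77.3%). Probe sequences were not used here, so the share of signal that a probe of 1 member takes from another cannot be told, and levels are compared between tissues for 1 probe, not between probes.

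The Mir34b hairpin is printed with both probed arms in capitals, since its 5′ arm was detected in white fat and its 3′ arm on no array.
Mir34b hairpin, chr9:51103562-51103645, minus strand: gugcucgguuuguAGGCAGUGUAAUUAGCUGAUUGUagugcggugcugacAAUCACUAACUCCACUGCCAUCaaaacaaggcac
In RefSeq the Mir34b and Mir34c hairpins are 451 bases apart, and both overlap the annotated spans of Btg4 and Hoatz. The Mir34a hairpin overlaps no other annotated gene, and the nearest protein-coding gene is Gpr157.

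Between 148 (inguinal) and 170 (soleus) of the 598 mouse probes per array reached the floor of 50 background-subtracted intensity units, and 207 did so on at least 1 array. As medians of spots, no empty position read above 2.5 units and no negative control above 6. The 95th percentile of the probes for viral microRNAs lay between 20.7 units (inguinal) and 77.6 (soleus). The tissue labels were checked against microRNA lists. The summed normalized intensity of 6 striated muscle microRNAs was 32.1 in gastrocnemius and 50.9 in soleus against 6.45 in brown, 0.488 in inguinal and 0.366 in epididymal fat. That of 6 brown adipocyte microRNAs was 23.7 in brown fat, 4.98 in inguinal and 7.98 in epididymal fat. It was 16.9 in gastrocnemius and 14.3 in soleus, mostly from miR-378, which read 5958 and 6074.5 units there and 7126.5 in brown fat. The median log2 ratio of its members over brown fat was -2.16 (inguinal), -1.98 (epididymal), -2.11 (gastrocnemius) and -2.47 (soleus). The probe for miR-122, the liver microRNA, read between 2 and 12.5 units. Brown fat thus carried muscle microRNAs above the levels of the white depots, and its miR-133a probe read 1605 units.

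MiR-34a was above the floor in all 5 tissues, and higher in white fat than in muscle. Its probe read 121.5 units in brown, 193 in inguinal and 232 in epididymal fat, 67.5 in gastrocnemius and 66.5 in soleus. The soleus value lay under the 95th percentile of the viral probes on that array (77.6 units), and the part of unspecific signal in it and in the folds over soleus was not tested. The order was epididymal, inguinal, brown, gastrocnemius, soleus, with the white depots exchanged under 1 of 6 other scalings of the arrays. Divided by the authors' array scale, which is each array's median over microRNAs above the floor in all samples, the levels were 0.586, 0.459, 0.273, 0.166 and 0.142 in that order. On that normalized scale the ranges of the 4 spots did not overlap between any neighbours in the order, although the gastrocnemius (0.159 to 0.196) and soleus (0.130 to 0.148) ranges lay close together.

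MiR-34b-5p, the strand from the 5′ arm of the Mir34b hairpin, stood above the floor in both white depots and far highest in epididymal fat. Its probe read 14 units in brown, 60 in inguinal and 282.5 in epididymal fat, 11.5 in gastrocnemius and 13 in soleus. The 4 epididymal spots ran from 245 to 289 units and the 4 inguinal spots from 49 to 66, so 1 inguinal spot lay under the floor. The brown fat and muscle spots, between 8 and 16 units, were all under it, and their normalized ranges overlapped, so these 3 tissues have no order.

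MiR-34c was above the floor in epididymal fat and in no other tissue. Its probe read 3 units in brown, 21 in inguinal and 137.5 in epididymal fat, 2.5 in gastrocnemius and 3.5 in soleus. The epididymal spots ran from 114 to 145 units and the inguinal spots from 14 to 22, the latter under the floor but above the highest median of the negative controls. In brown fat and both muscles the spots lay between 1 and 9 units and overlapped.

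The other arms were under the floor on every array. MiR-34b-3p read 29 units in brown, 15 in inguinal and 39.5 in epididymal fat, 22.5 in gastrocnemius and 25.5 in soleus. MiR-34c* read 7 units in brown, 7 in inguinal and 32 in epididymal fat, 2.5 in gastrocnemius and 4.5 in soleus. The epididymal spots of both, 36 to 45 and 29 to 38 units, did not overlap those of any other tissue on the normalized scale, while the other tissues overlapped with their neighbours. Neither was detected, so their pairs have no fold and no call. All 5 probes of the family were highest on the epididymal array, although miR-34a was higher in inguinal fat under 1 of 6 other scalings. The same held for 27.5 percent of the 207 mouse probes detected on at least 1 array, and for 19.4 percent of the 175 that were never detected but rose above the negative controls.

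**Figure D1:**
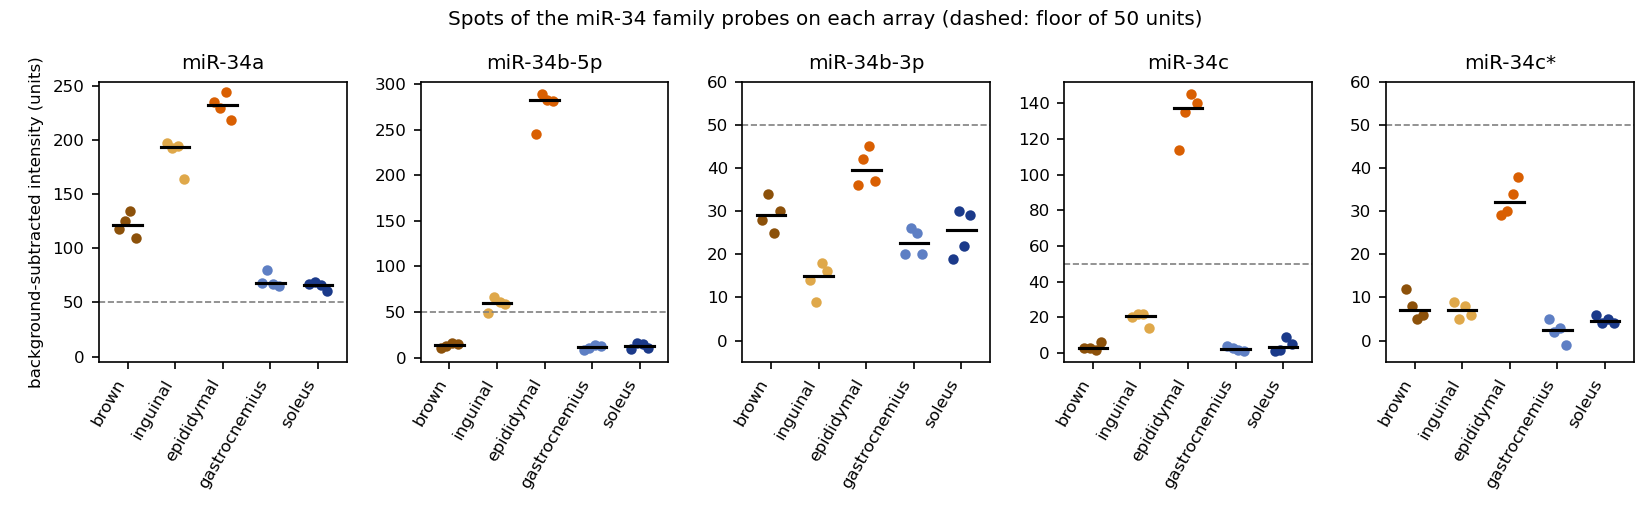
Background-subtracted intensity (units) of the 4 spots of each miR-34 probe on the 5 arrays, 1 panel a probe, each panel with its own linear axis. Points are spots, black bars the deposited median of spots and the dashed line the floor of 50 units. MiR-34a lies above the floor everywhere, miR-34b-5p reads 282.5 and 60 units in the epididymal and inguinal depots, miR-34c reads 137.5 in the epididymal depot, and both other arms stay under the floor.

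Tissues were then compared in pairs, 10 in all, on the normalized intensity. A pair was called where the ratio was 2-fold or more. Where 1 side was under the floor it was raised to the lowest detected value of that array, or kept if higher, and the fold, then a lower bound, is written as at least that much. Where both were under the floor no fold is given.

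For miR-34a, 5 of the 10 pairs were 2-fold apart, where 74 of the 207 detected microRNAs (35.7 percent) were so in 4 or more. Both white depots were above both muscles: epididymal fat by 3.54-fold over gastrocnemius (log2 SE 0.08) and 4.12-fold over soleus (0.05), inguinal fat by 2.77-fold over gastrocnemius (0.09) and 3.23-fold over soleus (0.07). Epididymal fat was also 2.15-fold above brown fat (0.07). The lowest spot of the higher tissue stood above the highest spot of the lower one in each of these pairs, by between 1.83 and 3.73 times. Of all mouse microRNAs considered, the share 2-fold apart either way was 32.6 percent for epididymal fat against gastrocnemius and 35.8 against soleus, 36.1 for inguinal fat against gastrocnemius and 38.6 against soleus, and 23 for epididymal against brown fat. Being 2-fold higher in both white depots than in both muscles was rarer, at 17 of 207 (8.21 percent).

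The other 5 pairs of miR-34a were within 2-fold. Inguinal over brown fat came to 1.68-fold, epididymal over inguinal to 1.28, brown fat over gastrocnemius to 1.65 and over soleus to 1.92, and gastrocnemius over soleus to 1.16. The background shares of called microRNAs were 24.4, 17.4, 29.6, 31.9 and 5.11 percent in that order. The white-over-muscle calls held under all 6 other scalings, with folds between 2.33 and 5.58. With a floor of 100 units both muscle values were under it, and these folds became bounds. Inguinal fat was then at least 1.81-fold above gastrocnemius, no longer a call, and at least 2.12-fold above soleus. Epididymal fat was at least 2.31-fold above gastrocnemius and at least 2.70-fold above soleus. The epididymal over brown call held under 4 of 6, down to 1.91-fold, and was 1.97-fold relative to the median microRNA of the pair, while inguinal over brown was called under 2 of 6 and relative to that median (2.02-fold).

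The summed normalized intensity of 8 leukocyte microRNAs was 25.6 in inguinal fat (8 of 8 detected), 12.5 in epididymal fat (6), 6.46 in brown fat (6), 4.32 in gastrocnemius (6) and 3.66 in soleus (7). One of its members, miR-142-3p, read 5061.5 units in inguinal and 2326.5 in epididymal fat against 620 in soleus, and miR-142-5p read 2338 and 394.5 against 67. Other members did not follow: miR-155 had a normalized intensity of 0.0694 in epididymal fat, under the floor, against 0.169 in gastrocnemius and 0.229 in soleus, and miR-150 was lower in epididymal (0.206) than in brown fat (0.374). The part of these cells, or of the muscle fibres, in the miR-34a difference was not tested, and in bulk tissue fewer cells of a type and less of the RNA per cell cannot be told apart.

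MiR-34b-5p had a fold in 7 of the 10 pairs and was 2-fold apart in 4, all with epididymal fat on the higher side. Epididymal over inguinal fat was 5.0-fold (log2 2.32, SE 0.11), with the lowest epididymal spot 3.94 times the highest inguinal spot. Of the 172 microRNAs considered in that pair, 11.6 percent were 2-fold higher in epididymal fat, miR-34b-5p among them. Epididymal fat was at least 6.17-fold above brown fat, at least 5.76-fold above gastrocnemius and at least 6.61-fold above soleus. Of all microRNAs considered, 12.9, 17.4 and 21.9 percent were 2-fold higher in epididymal fat in these 3 pairs. These 4 calls held under all 6 other scalings, the epididymal over inguinal ratio between 2.94 and 5.02-fold.

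Inguinal fat was at least 1.24-fold above brown fat, at least 1.15-fold above gastrocnemius and at least 1.32-fold above soleus in miR-34b-5p, bounds under 2-fold that start from an inguinal value of 60 units, close to the floor. The remaining 3 pairs, among brown fat and the muscles, were under the floor on both sides.

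MiR-34c was detected on the epididymal array alone, so its folds are the 4 against that array and can point one way only. All 4 passed 2-fold with the floor of 50 units, and 0 did with a floor of 100. Epididymal fat was at least 3.01-fold above brown fat, at least 2.92-fold above inguinal fat, at least 2.80-fold above gastrocnemius and at least 3.22-fold above soleus. Of all microRNAs considered, 12.9, 11.6, 17.4 and 21.9 percent were 2-fold higher in epididymal fat in these pairs, in that order. The calls against brown fat and soleus held under all 6 other scalings, that against gastrocnemius under 5 and that against inguinal fat under 4, where the lowest was 1.70-fold. In the authors' deposited table of pair ratios, which sets no floor, epididymal over inguinal fat was 6.95 for miR-34c and epididymal over brown fat 51.6, and for miR-34b-5p the latter was 22.7. Each of these divides by a value under the floor, so the sizes are not measured folds.

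**Figure D2:**
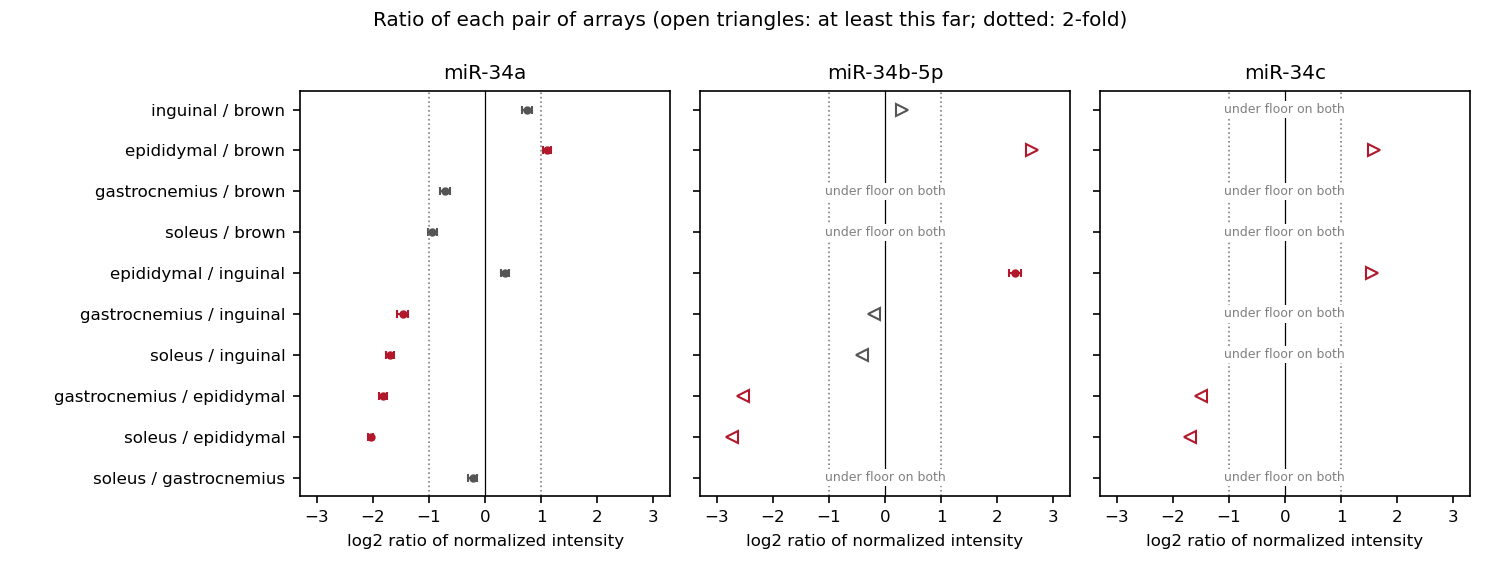
Log2 ratio of normalized intensity for each of the 10 pairs of arrays, for miR-34a, miR-34b-5p and miR-34c. Filled points carry bars of 1 spot SE, open triangles are bounds that point away from 0, red marks ratios of 2-fold or more (dotted lines), and pairs under the floor on both arrays have no point. MiR-34a has a ratio in all 10 pairs and 5 calls, while the 4 calls of miR-34b-5p and the 4 of miR-34c all involve epididymal fat.

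Only 8 of the 207 detected microRNAs (3.86 percent) were 2-fold higher in epididymal fat than in each other tissue. They were miR-34b-5p, miR-200a, miR-200b, miR-141, miR-135a, miR-34c, miR-708 and miR-103, so both members of the chromosome 9 pair were in and miR-34a was not. MiR-34c, like miR-200a, miR-200b and miR-141, was detected on the epididymal array alone, so it could be called in that direction only. With a floor of 100 units it had 0 called pairs, so its entry says little about a difference from miR-34a. How far the miR-34b-5p and miR-34c probes share signal cannot be told. The smallest fold over the other tissues was 5.0 for miR-34b-5p and at least 2.80 for miR-34c, and since most of the others are bounds too, the 8 are not ranked. Over the 7 other scalings tried, the number fell between 4 and 8. MiR-34b-5p was in every one, miR-34c was missing under 2 (the 75th percentile of detected probes, and normexp with quantile normalization), and miR-34a was in none.

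The family's divergence was plainest between the white depots, where miR-34a and miR-34b-5p were each detected on both arrays. The 5.0-fold difference of miR-34b-5p stood beside 1.28-fold for miR-34a. Over the 133 mouse microRNAs detected on both arrays the median log2 ratio, epididymal over inguinal, was 0.41, so miR-34a lay 0.05 below the median (-0.05) and miR-34b-5p 1.92 above it. The log2 change of miR-34b-5p exceeded that of miR-34a by 1.97 (SE 0.13), or 3.92 times, a value that no single scaling factor per array can move. For miR-34c the excess over miR-34a was at least 1.19, or 2.29 times. The small epididymal excess of miR-34a itself had no settled direction, since its log2 ratio was -0.19 with scaling to the 75th percentile of the probes detected on all arrays.

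The comparisons with brown fat and muscle use the same epididymal array as that with inguinal fat, so they do not repeat it independently. Against brown fat the contrast ran the same way. There the log2 change of miR-34b-5p exceeded that of miR-34a by at least 1.52, or 2.87 times, and the change of miR-34c by at least 0.48, or 1.40 times. The ratio of epididymal fat to muscle was at least 1.63 times larger for miR-34b-5p than for miR-34a with gastrocnemius, and at least 1.60 times larger with soleus. For miR-34c the muscle bounds were weaker than the ratios of miR-34a, so no difference can be stated for them.

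**Figure D3:**
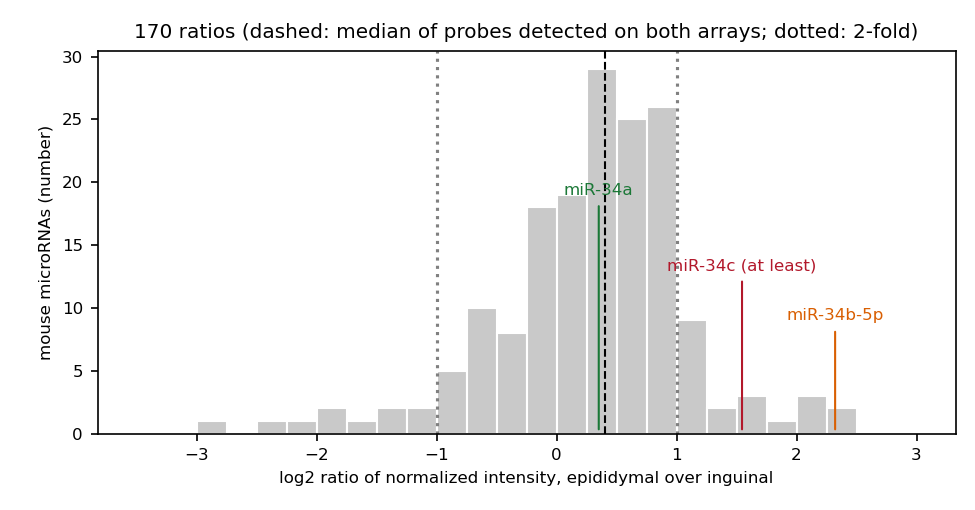
Histogram of the log2 ratio of normalized intensity, epididymal over inguinal fat, for the 170 mouse microRNAs that had a ratio, with their number on the vertical axis. The dashed line marks the median over probes detected on both arrays (0.41) and dotted lines 2-fold. MiR-34a (0.35) sits beside the median, while miR-34b-5p (2.32) and miR-34c (at least 1.55) lie in the upper tail.

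Profiles most like each detected member were found by the root mean square difference of log2 levels over the 5 arrays, with each microRNA centred on its own mean and values under the floor raised to it. Nearest to miR-34b-5p, of 206 compared, were miR-200a (0.21), miR-200b (0.22), miR-141 (0.30), miR-34c (0.40) and miR-135a (0.43), against a median of 1.05. Nearest to miR-34c were miR-141 (0.11), miR-200b (0.20), miR-200a (0.21), miR-200c (0.24) and miR-99b (0.25), against a median of 0.70. MiR-99b was detected on all 5 arrays. The others nearest to miR-34c were detected on the epididymal array alone, so their likeness to it rests largely on 4 arrays where both sit at the floor. A similar limit holds for miR-34b-5p, which was under the floor in brown fat and both muscles and read 60 units, close to it, in inguinal fat. Apart from miR-135a, its nearest profiles were detected in epididymal fat alone. Their likeness to miR-34b-5p thus rests largely on arrays where both sit at or near the floor.

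Nearest to miR-34a were miR-106b (0.24), miR-103 (0.27), miR-339-5p (0.28), miR-223 (0.29) and miR-106a (0.30), against a median of 0.86. None of these was among the profiles nearest to miR-34b-5p or miR-34c. Lists of 5 names out of 206 compared can easily share no name, so no conclusion is drawn from that. The 5 nearest to miR-34a were detected on every array, while most of the profiles named for miR-34b-5p and miR-34c were detected in epididymal fat alone. How far the lack of overlap follows from detection was not tested. MiR-103, which was 2-fold higher in epididymal fat than in each other tissue here but under only 1 of the 7 other scalings, read 1790 units there, 961 in brown and 912 in inguinal fat, 430 in gastrocnemius and 399 in soleus. MiR-223, a myeloid microRNA of the leukocyte list, read 1432 units in inguinal and 1341 in epididymal fat and between 527 and 609.5 in the other tissues.

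**Figure D4:**
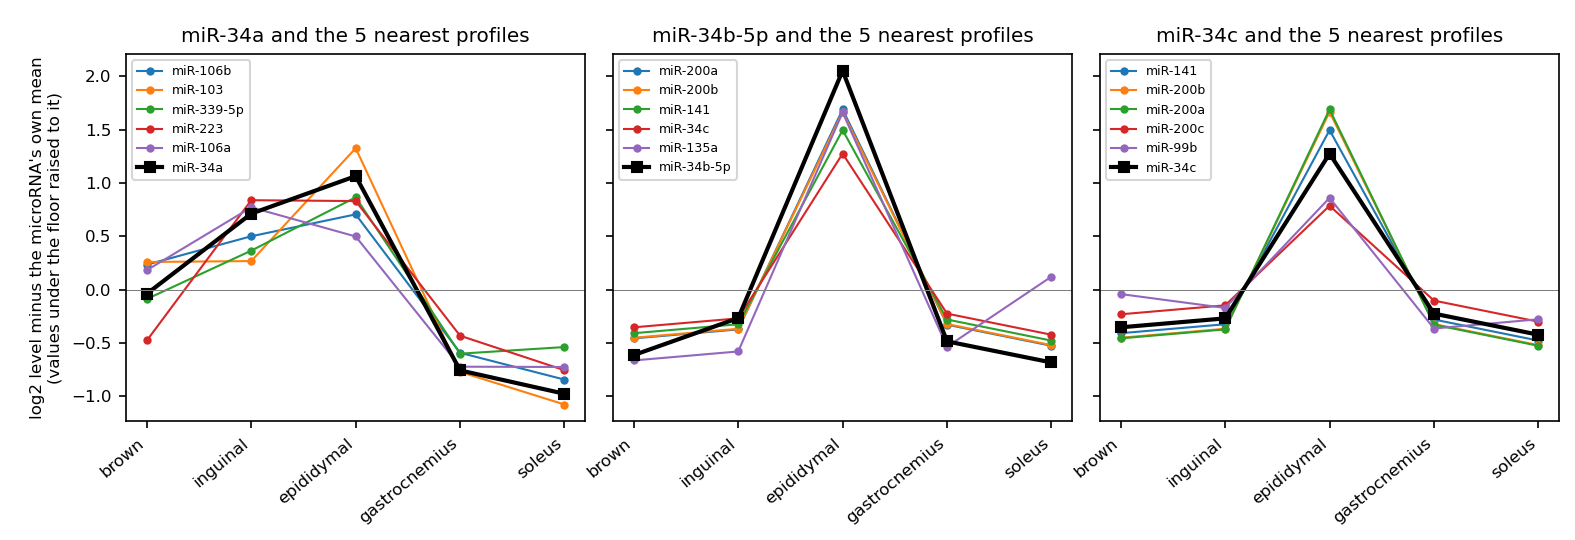
Log2 level of miR-34a, miR-34b-5p and miR-34c (black squares) and of the 5 microRNAs with the nearest profile to each (coloured points), every microRNA minus its own mean over the 5 arrays, with values under the floor raised to it. The miR-34a panel declines from the white depots over brown fat to muscle, and the other panels show 1 peak, at epididymal fat, over levels that mostly sit at the floor.

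The epididymal depot lies beside the epididymis and testis, and marker lists for epithelium and for testis and gonad were read beside the miR-34b/c values. Of 11 epithelial microRNAs, 5 were detected in epididymal fat, 3 in brown fat, 1 in inguinal fat, 1 in soleus and 0 in gastrocnemius, with summed normalized intensities of 2.49, 2.89, 0.713, 0.187 and 0.108. The members of the miR-200 family, which hold epithelial cells in their state by repressing Zeb1 and Zeb2, accounted for 4 of the 5 in epididymal fat. MiR-200a read 197 units there, miR-200b 193, miR-141 166.5 and miR-200c 90, and all 4 were under the floor elsewhere, with 40 units for inguinal miR-141 the highest. MiR-429, also on the list, read 32 units in epididymal fat and at most 1.5 elsewhere, under the floor on every array.

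The list did not move as a whole. Brown fat, where miR-34b-5p and miR-34c were under the floor, had the highest sum, from miR-203 (757 units), miR-182 (264) and miR-96 (210), while miR-205, a marker of stratified epithelium, read 7.5 units in epididymal fat and miR-375 read 4.5. The part of epithelial cells in the miR-34b/c signal was not tested.

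None of the 16 testis and gonad microRNAs reached the floor on any array, and the highest read 7.5 units in epididymal fat. Their summed normalized intensity was 0.0606 there, 0.196 in brown fat, 0.0416 in inguinal fat, 0.0515 in gastrocnemius and 0.0502 in soleus. These sums are made of values under the floor, and the part of testis or epididymis cells in the miR-34b/c signal was not tested.

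The seed relatives of the family, which are abundant in the same ciliated tissues, were not detected. MiR-449a read 1 unit in brown, 2.5 in inguinal and 11 in epididymal fat, 0.5 in gastrocnemius and 2 in soleus, so it was highest in epididymal fat but under the floor. MiR-449b stayed at or under 0.5 units and miR-449c at or under 2 units on all 5 arrays. Of these 3 probes, none but miR-449a read above the negative controls in epididymal fat.

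**Figure D5:**
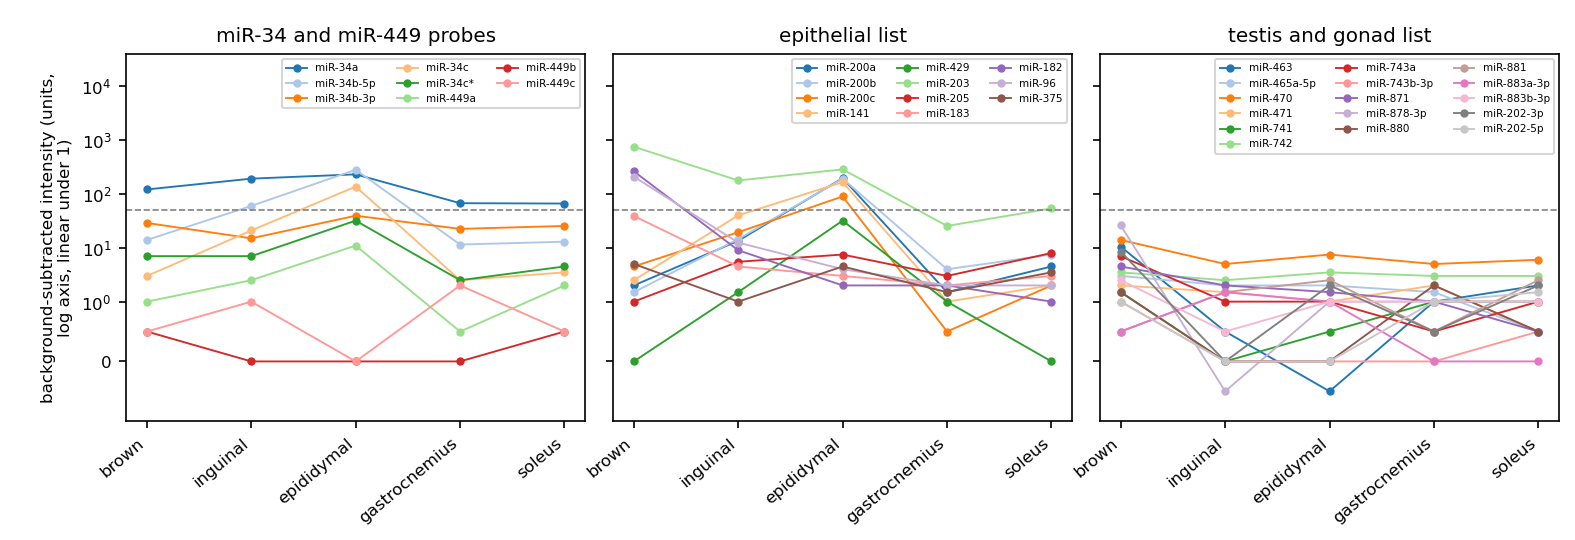
Background-subtracted intensity (units, log axis that is linear under 1) on the 5 arrays for the 5 miR-34 and 3 miR-449 probes, the 11 epithelial probes and the 16 testis and gonad probes, with the floor of 50 units dashed. The miR-34b-5p and miR-34c peak in epididymal fat has a counterpart in miR-200a, miR-200b, miR-200c and miR-141, and under the floor in miR-429. Other epithelial probes go another way: miR-203, miR-182, miR-96 and miR-183 are highest in brown fat, and miR-205 and miR-375 stay under the floor. The testis and gonad probes stay under the floor in every tissue.

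Other microRNAs that p53 is known to raise, through transcription or processing, were described as a list of 10 to set beside the family. Between the white depots 8 of them could be compared, and 1 was 2-fold higher in epididymal fat (miR-141, at least 3.54-fold) and 0 lower, near the 11.6 and 5.81 percent of all microRNAs considered. Their median log2 ratio was 0.64, against 0.41 over all microRNAs with a ratio. Against brown fat, 1 of 8 was 2-fold higher in epididymal fat (miR-141, at least 3.64-fold) and 1 lower (miR-107, 2.72-fold), where 12.9 and 10.1 percent of all microRNAs were, with a median of 0.22 against 0.13 over all microRNAs with a ratio. MiR-141 belongs to the epithelial list as well, as does miR-200c.

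In the pairs of white fat and muscle, all 4 of which were called for miR-34a, the list gave these counts. In inguinal fat against each muscle 5 members could be compared and 0 were 2-fold apart in either direction, where the share over all microRNAs was 36.1 and 38.6 percent. In epididymal fat against gastrocnemius 1 of 8 was 2-fold lower in muscle (miR-141, at least 3.39-fold), and against soleus 2 of 8 were (miR-141, at least 3.89-fold, and miR-200c, at least 2.11-fold). The shares over all microRNAs that were 2-fold lower in muscle, 17.4 and 21.9 percent, are close to these counts. Of the 5 list members detected in all tissues, miR-143, miR-145, miR-15a and miR-16 were 2-fold apart in no pair. The other, miR-107, was highest in brown fat, at 260.5 units against 96.5 in inguinal and 85 in epididymal fat, 52.5 in gastrocnemius and 81 in soleus, whereas brown fat was highest for no miR-34 member. MiR-192 read 60.5 units in brown and 67.5 in epididymal fat and was under the floor elsewhere, and miR-194 (24 to 48.5 units) and miR-215 (0 to 8 units) were under it on every array.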

How the data were processed

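Total RNA (1 ug per array, per the labels' protocols) was labelled with a Cy3-read dye and hybridised to 5 arrays. Per the file headers, the authors deposited background-subtracted intensity for 4 spots per probe, their median, and a normalized intensity, which is a ratio to 1 value per array, the median of microRNAs that exceeded 50 on every array. The authors also deposited pair ratios, difference lists and a correlation table, and the last 2 were not used here. No source used here gives the scanner or its software. The series' value table held the same normalized values (largest difference 5.0e-09 over 1973 probes).

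Log2 ratios of the deposited normalized intensity were computed with Python 3.11.15, numpy 2.4.6 and pandas 2.3.3, and the calling steps were tested on simulated data. Alternatives were no scaling, 5 other scalings (1 of them normexp with offset 50 and quantile normalization in limma 3.58.1 under R 4.3.3), the mean of spots in place of their median, a floor of 100, values under the floor as deposited, fold limits of 1.5 and 3, and ratios relative to the median of each pair. Alignments used Biopython 1.88. Precision is limited by the number of arrays, which have no sequencing depth. Named microRNAs were all family rows, the miR-449 relatives, the p53-linked list, the 5 nearest profiles of each detected member, and marker lists by their counts, sums and detected members; other microRNAs named were chosen after their values were seen. Members and lists were chosen with earlier results of these data known.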

Additional observations from a re-analysis of the deposited data

How the results depend on the processing

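No paired analysis was possible because the tissues have 1 array each. Of 206 alternative values of the pair ratios, 102 moved by less than the spot SD, 104 by more, and 0 calls reversed. The 102 include values that could not move, such as ratios with both sides detected when values under the floor were kept as deposited. Uncalled ratios were not counted as reversed, and that of epididymal over inguinal fat for miR-34a did change sign. The number of called pairs for miR-34a went from 5 to 8 at a fold limit of 1.5, to 3 at a limit of 3 and to 4 with a floor of 100. Relative to the median of each pair it stayed 5, but inguinal over brown fat (log2 1.01) replaced epididymal over brown fat (0.98). For miR-34b-5p it went from 4 to 7 with spike-in scaling (65 probes) and to 7 with values under the floor as deposited. For miR-34c it went from 4 to 2 with normexp and quantile normalization, to 0 with a floor of 100, which raises every value on the lower side, and to 2 at a limit of 3. The log2 ratio of epididymal over inguinal fat for miR-34a, miR-34b-5p and miR-34c was -0.19, 1.78 and 1.00 with the 75th percentile of probes detected on all arrays, and 0.060, 2.03 and 1.25 with that of all mouse probes. It was 0.010, 1.98 and 1.20 with spike-in scaling, 0.12, 1.56 and 0.76 with normexp and quantile normalization, and -0.054, 1.92 and 1.14 relative to the median of each pair. For miR-34b-5p it was 1.58 with a floor of 100, and for miR-34c 0.55 with that floor and 2.80 with values as deposited. The excess of the miR-34b-5p change over that of miR-34a was 1.43 with normexp and quantile normalization and 1.23 with a floor of 100. That of miR-34c was 0.64, 0.19 and, with values as deposited, 2.45. The cause of the other shifts was not tested. Over all microRNAs, 20 were 2-fold higher and 10 lower in epididymal than in inguinal fat, but 7 and 25 with the 75th percentile of probes detected on all arrays. Epididymal over brown fat went from 23 and 18 to 50 and 12 with spike-in scaling, inguinal over brown from 18 and 25 to 48 and 13, gastrocnemius over inguinal from 39 and 26 to 20 and 64, soleus over inguinal from 39 and 32 to 18 and 60, gastrocnemius over epididymal from 28 and 32 to 22 and 60, and soleus over epididymal from 26 and 41 to 18 and 61. With the 75th percentile of detected probes, gastrocnemius over brown went from 33 and 22 to 40 and 12 and soleus over brown from 29 and 30 to 38 and 21, and with no scaling soleus over gastrocnemius from 5 and 4 to 8 and 2. The setting relative to the median and the differences between changes were chosen after seeing the data. Signal over background limits miR-34c, miR-34b-3p, miR-34c*, the miR-34b-5p values outside white fat and the miR-34a values in muscle.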
